A study of Mus musculus with 12 samples.

Results

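The genes described here are 10 genes that define inhibitory interneurons: *Gad1*, *Gad2*, *Slc32a1*, *Pvalb*, *Sst*, *Vip*, *Npy*, *Cck*, *Calb2* and *Lhx6*. They were taken by name from 55413 annotated genes of GRCm38 (GENCODE), and all 10 were found. For each gene, peaks of acetylation of histone H4 at lysine 12 (H4K12ac) were read within 2 kb of the transcription start site (TSS) and in the gene body, in 10 peak lists. The lists come from ChIP-Seq of sorted neuronal nuclei of the whole hippocampus, with 5 *Tip60* cKO and 5 control mice. *Tip60* cKO mice carried the tamoxifen-inducible *CaMKCreERT2* driver and floxed *Tip60* on both alleles (*Tip60* f/f), and control mice were *Tip60* f/f without the driver. Both genotypes received tamoxifen and were taken at day 10 after its last injection, and the labels give 3 months of age, male sex and the strain C57BL/6J for all 10 mice, whereas the methods of the study name either sex and C57BL/6N. TIP60, encoded by *Kat5*, is a histone acetyltransferase that acts on histone H4. H4K12ac peaks do not measure its expression, so the genotype rests on the labels.

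GABAergic interneurons are a minority of hippocampal neurons and inhibit the principal cells. *Gad1* and *Gad2* encode the enzymes that make GABA from glutamate, and *Slc32a1* encodes the transporter that loads GABA into synaptic vesicles. *Pvalb* and *Calb2* encode calcium-binding proteins, *Sst*, *Vip*, *Npy* and *Cck* encode neuropeptides, and *Lhx6* encodes a transcription factor of interneurons born in the medial ganglionic eminence. The driver of this model deletes *Tip60* in postmitotic excitatory neurons of the forebrain, so interneurons are not the cells it targets. The sort was for neuronal nuclei, and the share of interneurons among them was not measured. Each library mixes all neuronal nuclei, in which fewer nuclei of a type and less acetylation per nucleus cannot be told apart. *Cck* is also transcribed in excitatory hippocampal neurons.

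Peak calling used 22864189 to 37923809 tags per library and gave lists of 64245 to 136409 peaks. Peaks covered 43.8 ± 14.0 Mb in *Tip60* cKO and 56.4 ± 10.7 Mb in control libraries (SD, n = 5 each). *Tip60* cKO mouse 5 had the fewest tags and peaks. All 8 pan-neuronal marker genes examined had a TSS peak in all 10 libraries. Of the glial and endothelial markers, 6 of 8 oligodendrocyte, 6 of 7 microglial, 3 of 7 astrocyte and 2 of 6 endothelial genes had none in any library, while *Mbp* had a peak in all 10. The share of astrocyte markers with a peak was 28.6 ± 10.1% in *Tip60* cKO (14.3 to 42.9% per mouse) and 42.9 ± 10.1% in control (28.6 to 57.1%). For microglial markers it was 2.86 ± 6.39% and 11.4 ± 6.39% (SD, n = 5 each, 0 to 14.3% per mouse in both), all from *P2ry12*, with a peak in 1 *Tip60* cKO and 4 control libraries. The part of these markers' cell types in the results was not tested.

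RefSeq promoter sequences on GRCm38.p6 were found for 9 of the 10 genes, and *Calb2* had no entry. Printed below are the 250 bases before the RefSeq start, on the strand of transcription, for *Cck* and *Gad1*, which had peaks around this start in all 10 libraries, for *Npy* with peaks in 7, and for *Sst* and *Vip*, which had no peak in any library. Capitals mark exact matches on either strand to the letters TGACGTCA (cAMP response element), TATAAA (the core of a TATA box), TAATTA (homeodomain core) or GGGCGG (GC box), and no match overlapped another. The sequences lie at chr9:121495695-121495944 (minus strand) for *Cck*, chr2:70561879-70562128 (plus) for *Gad1*, chr6:49822460-49822709 (plus) for *Npy*, chr16:23890845-23891094 (minus) for *Sst* and chr10:5638968-5639217 (plus) for *Vip*.
Cck: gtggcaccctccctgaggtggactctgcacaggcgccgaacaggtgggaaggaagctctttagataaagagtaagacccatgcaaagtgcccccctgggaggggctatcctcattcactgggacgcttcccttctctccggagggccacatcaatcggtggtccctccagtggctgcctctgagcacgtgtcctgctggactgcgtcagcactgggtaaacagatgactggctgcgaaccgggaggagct
Gad1: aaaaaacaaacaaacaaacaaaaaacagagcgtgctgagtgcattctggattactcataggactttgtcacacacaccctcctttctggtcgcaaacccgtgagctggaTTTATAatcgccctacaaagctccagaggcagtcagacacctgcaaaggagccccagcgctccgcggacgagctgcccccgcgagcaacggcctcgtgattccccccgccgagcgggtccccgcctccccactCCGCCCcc
Npy: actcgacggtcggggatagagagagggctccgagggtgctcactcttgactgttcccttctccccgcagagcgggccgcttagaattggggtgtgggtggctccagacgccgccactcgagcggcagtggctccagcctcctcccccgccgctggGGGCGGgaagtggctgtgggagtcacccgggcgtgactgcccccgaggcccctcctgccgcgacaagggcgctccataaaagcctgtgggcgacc
Sst: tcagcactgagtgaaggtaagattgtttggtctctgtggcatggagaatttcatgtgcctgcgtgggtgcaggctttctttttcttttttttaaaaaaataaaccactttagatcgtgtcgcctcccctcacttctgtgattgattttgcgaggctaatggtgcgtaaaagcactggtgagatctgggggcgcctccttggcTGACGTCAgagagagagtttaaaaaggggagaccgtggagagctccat
Vip: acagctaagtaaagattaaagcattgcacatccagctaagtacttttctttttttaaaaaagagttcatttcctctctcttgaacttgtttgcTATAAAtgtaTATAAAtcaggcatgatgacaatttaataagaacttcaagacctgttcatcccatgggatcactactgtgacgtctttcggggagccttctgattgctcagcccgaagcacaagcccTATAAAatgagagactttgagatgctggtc

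The *Sst* promoter held the full cAMP response element, beginning 48 bases before the start, a sequence found in 1.79% of 32851 promoters of 300 bases (250 before to 50 after the start). TATAAA was present in 13.6% of all promoters. It stood 3 times in *Vip*, the nearest beginning 30 bases before the start, and it stood once in *Gad1* and once just after a downstream RefSeq start of *Lhx6*. GGGCGG was present in 35.7% of all promoters, and in *Gad1*, *Npy* and *Lhx6* among the members. TAATTA, found in 5.29% of promoters, was in none of the members' sequences. In the 300 bases, the ratio of observed to expected CpG was 0.849 for *Gad1*, 0.693 for *Npy*, 0.707 for *Sst*, 0.379 for *Cck* and 0.310 for *Vip*, against a median of 0.384 over all promoters (quartiles 0.176 and 0.750). The GC content was 60% for *Gad1*, 68% for *Npy*, 50.3% for *Sst*, 59.3% for *Cck* and 41.7% for *Vip*, with a median of 52.7% over all.

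H4K12ac peaks at the annotated TSS were present in all libraries only at *Cck*, and in part of the libraries or in none at the other interneuron genes. A peak within 2 kb was present in at least 1 library for 7 genes and in at least 2 libraries for 5. The 3 members (30%) without a peak in any library stand beside 34.7% of all protein-coding genes, and *Cck*, the 1 member (10%) with a TSS peak in all 10 libraries, beside 44.0%. With the members' RefSeq starts, an alternative described below for *Gad1*, 2 members (20%) had none and 2 (20%) had a peak in all 10. *Npy* followed with 7 libraries, *Calb2* with 4, *Pvalb* with 3, *Slc32a1* with 2, and *Lhx6* and *Gad2* with 1 each, while *Gad1*, *Sst* and *Vip* had none. Per mouse, 24 ± 8.94% of the members had a TSS peak in control and 32 ± 13% in *Tip60* cKO (SD, n = 5 each). Among all 21938 protein-coding genes it was 57.3 ± 0.873% in control and 54.9 ± 3.02% in *Tip60* cKO. In control mice the TSS rank score, the percentile of a gene's strongest TSS peak by fold enrichment within the library or 0 without a peak, was 87.0 ± 2.09 for *Cck*, 43.3 ± 39.6 for *Pvalb*, 41.2 ± 37.6 for *Npy* and 13.6 ± 30.3 for *Calb2* (SD, n = 5 each), and 0 for the other 6. The order of *Pvalb*, *Npy* and *Calb2* lay within their spread. A missing peak says only that nothing at the gene passed the authors' threshold (q < 0.1) at that library's depth, not that the mark was absent.

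**Figure D1:**
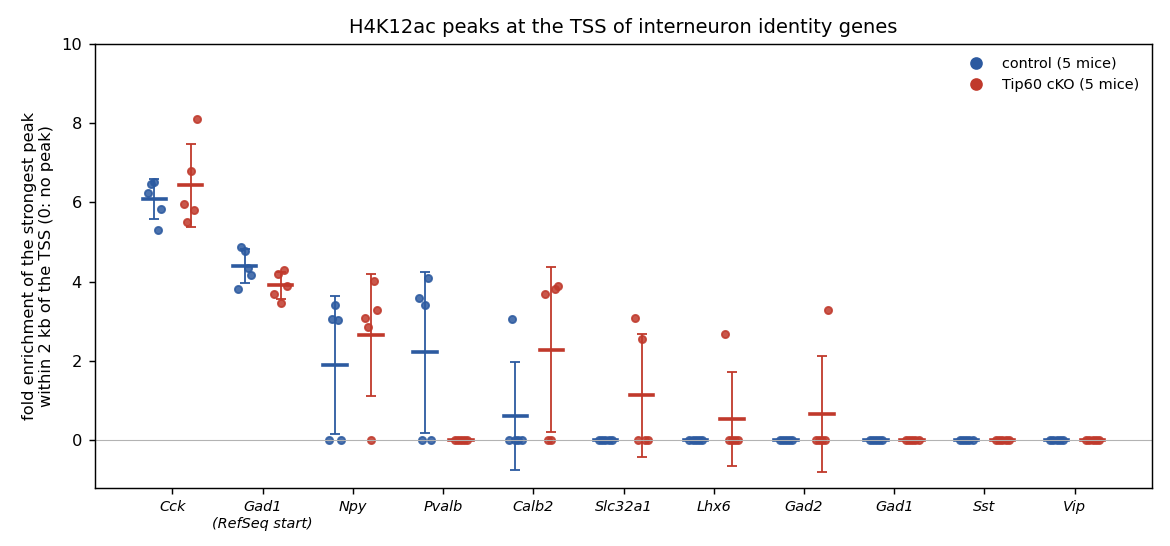
Fold enrichment of the strongest H4K12ac peak within 2 kb of the TSS (y axis, ratio to local background, 0 where no peak was called) for each member, with *Gad1* shown also at its RefSeq start. Points are mice, bars the mean and SD of 5 mice. *Cck* lies between 5.31 and 8.10 in all 10 mice, *Gad1* at its RefSeq start between 3.47 and 4.88, and the other members have mice at 0.

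*Cck* carried the strongest peak of the 10 genes in each library. The fold enrichment, the height of a peak over its local background, of the strongest peak within 2 kb of the *Cck* TSS was 6.25, 6.47, 6.51, 5.31 and 5.84 in control mice 1 to 5. In *Tip60* cKO mice 1 to 5 it was 5.96, 5.51, 6.79, 5.82 and 8.10. The genotypes overlapped, and *Tip60* cKO mouse 5 was highest. The means were 6.44 ± 1.04 in *Tip60* cKO and 6.08 ± 0.505 in control (SD, n = 5 each, two-sided exact permutation p = 0.579). The rank score of *Cck* averaged 92.0 ± 4.63 in *Tip60* cKO and 87.0 ± 2.09 in control mice, a difference of 5.02 ± 2.50 (SE, limma adjusted p = 0.492 over all genes tested). It was 2.51 within lane 7 (3 mice per genotype), 8.78 within lane 8 (2 mice per genotype), 3.23 without *Tip60* cKO mouse 5, and -1.24 when peaks were ranked by pileup.

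Peaks covered 57.6, 63.4, 44.9, 53.3 and 70.0% of the 4 kb window around the *Cck* TSS in control mice 1 to 5. In *Tip60* cKO mice 1 to 5 they covered 62.8, 45.0, 49, 43.4 and 30.3%. The ranges overlapped, with *Tip60* cKO mouse 5, the library with the fewest tags, lowest. The mean was 11.7 percentage points lower in *Tip60* cKO (46.1 ± 11.7% against 57.8 ± 9.57%, SD, n = 5 each), which did not pass the test (exact permutation p = 0.119). The difference was -3.05 points within lane 7 and -24.8 within lane 8. With equal numbers of peaks per library the difference was -1.12 points (exact permutation p = 0.913), and without *Tip60* cKO mouse 5 it was -7.80 (exact p = 0.254). With all transcript starts of *Cck* the exact permutation p was 0.0397, and 0.0397 as well without *Tip60* cKO mouse 1. Over the 21672 genes with a TSS peak in at least 2 libraries, 81.0% had lower mean coverage in *Tip60* cKO, with a median difference of -4.01 points, and 19.4% reached an exact p below 0.05 in either direction, which none of the members did. Of the 5 members tested, *Cck* and *Pvalb* had lower mean TSS coverage in *Tip60* cKO. It was higher at *Npy* (6.00 against 3.40%), *Calb2* (3.22 against 1.19%) and *Slc32a1* (2.67 against 0%). Leaving out each library in turn gave differences of 1.67 to 4.10 points at *Npy*, 1.40 to 3.22 at *Calb2* and 1.22 to 3.34 at *Slc32a1*. Within lane 7 they were 0.400 points at *Npy*, -0.0583 at *Calb2* and 4.46 at *Slc32a1*, and within lane 8 they were 5.90, 5.17 and 0. Equal numbers of peaks gave 3.37, 3.22 and 0.

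*Cck* had 3 consensus regions, merged peaks of at least 2 libraries. The region chr9:121495078-121496983 (mm10), with its centre 336 bases upstream of the TSS and overlapping the 5′ untranslated exon, had a peak in all 10 libraries. Its fold enrichment was 4.30, 2.85, 3.40, 3.22 and 4.37 in control mice 1 to 5, and 3.98, 5.51, 5.12, 4.38 and 5.40 in *Tip60* cKO mice 1 to 5. *Tip60* cKO mouse 1 lay within the range of the controls, and the other *Tip60* cKO mice lay above it. The mean was 4.88 ± 0.667 in *Tip60* cKO and 3.63 ± 0.677 in control (SD, n = 5 each, exact permutation p = 0.0317, computed after the values were seen). In the fit over all 144701 consensus regions, the difference in rank score of 21.3 ± 8.17 (SE) was not called (limma adjusted p = 0.351).

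The height of these peaks and the background under them were also read separately. The pileup, the number of overlapping fragments at the highest summit of the region, was 0.769, 0.618, 0.757, 0.584 and 0.686 in control mice 1 to 5, scaled to 1000000 tags of the library, at the upstream *Cck* region. It was 0.539, 0.650, 0.735, 0.607 and 0.744 in *Tip60* cKO mice 1 to 5. The genotypes overlapped, with means of 0.655 ± 0.0865 in *Tip60* cKO and 0.683 ± 0.0821 in control (SD, n = 5 each, exact permutation p = 0.611). The local background that divides the pileup, relative to the lowest in each library and read at the library's strongest peak of the region, was 1.05 ± 0.0503 in *Tip60* cKO and 1.49 ± 0.256 in control (SD over 5 libraries each), with every *Tip60* cKO library below every control library. Over all peaks of the region, several per library, it ran from 1 to 1.55 in *Tip60* cKO and from 1.25 to 1.87 in control and overlapped. At the downstream region chr9:121493256-121494888, which spans coding exon sequence, it was 1 at the strongest peak of each *Tip60* cKO library and 1.28 to 1.47 in control, while a weaker peak of *Tip60* cKO mouse 5 had 1.81. This background was derived from 1 pooled input per genotype and was not tested, so at *Cck* a difference between the genotypes and a difference between the 2 inputs cannot be told apart. The share of all consensus regions whose background separates the genotypes in this way was not determined here. The exact permutation tests of fold enrichment treat the libraries of a genotype as independent, although they share 1 pooled input.

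**Figure D2:**
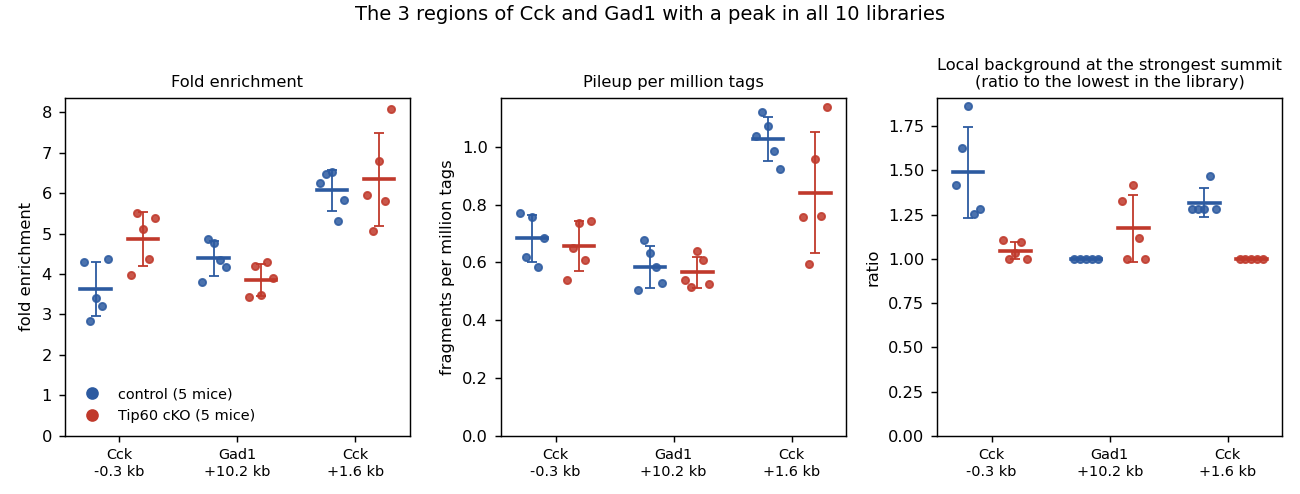
Fold enrichment (ratio), pileup (fragments scaled to 1000000 tags) and local background of the strongest peak (ratio to the lowest in the same library) at the 3 member regions with a peak in all 10 libraries, labelled by gene and distance of the centre from the annotated TSS. Points are mice, bars the mean and SD of 5 mice. At the region upstream of *Cck* the fold enrichment is 4.88 in *Tip60* cKO and 3.63 in control on average, and the pileup overlaps.

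In the *Cck* gene body, from 2 kb after the TSS to the gene end, the fold enrichment of the strongest peak was 6.25, 6.47, 6.51, 4.72 and 5.84 in control mice 1 to 5. It was 3.49, 2.62, 3.94, 4.47 and 3.83 in *Tip60* cKO mice 1 to 5. All 5 *Tip60* cKO values lay below the lowest control value (3.67 ± 0.686 against 5.96 ± 0.743, SD, n = 5 each, exact permutation p = 0.00794). The same held for 2.89% of the 12823 gene bodies tested, and the reverse for 0.655%. The body rank score fell short of a call, with a difference of -17.5 ± 3.89 (SE, limma adjusted p = 0.159), -23.3 within lane 7 and -8.83 within lane 8. With equal numbers of peaks per library the difference was -44.1 (limma adjusted p = 0.445). The limma adjusted p was 0.551 with the replicate number as a block and 0.0669 with a mean-dependent robust prior. The libraries of a genotype share 1 pooled input, whose error the spread between mice does not include. The body values also depended on where the body begins. The peak of the downstream region crossed the limit of 2 kb in all 5 control libraries, and a peak did so in 1 of 5 *Tip60* cKO libraries. The strongest peak of the downstream region as a whole had a fold enrichment of 6.35 ± 1.15 in *Tip60* cKO and 6.08 ± 0.505 in control (exact permutation p = 0.683). Body coverage was 9.38 ± 5.13% in *Tip60* cKO and 14.5 ± 5.35% in control (SD, n = 5 each, exact permutation p = 0.159). The coverage difference was -0.620 points within lane 7 and -11.8 within lane 8.

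*Gad1* carried its H4K12ac peaks inside the annotated gene. GENCODE places its 5′ end at chr2:70553072, and no library had a peak within 2 kb of it, the nearest being 6044 to 9957 bases away. The RefSeq start lies 9057 bases downstream, at the sequence printed above, and the window of 2 kb around it held a peak in all 10 libraries. This start was added as an alternative after the peaks were seen. There the fold enrichment was 3.81, 4.88, 4.76, 4.34 and 4.17 in control mice 1 to 5, and 3.70, 4.19, 3.47, 4.30 and 3.90 in *Tip60* cKO mice 1 to 5. The genotypes overlapped, with means of 3.91 ± 0.340 in *Tip60* cKO and 4.39 ± 0.437 in control (SD, n = 5 each, exact permutation p = 0.103). At this start the rank scores averaged 75.7 ± 3.11 in *Tip60* cKO and 76.9 ± 2.70 in control mice, a difference of -1.22 ± 2.17 (SE, limma adjusted p = 0.820).

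The body of *Gad1*, which includes the window around the RefSeq start, held 8 to 12 peaks in control libraries and 2 to 12 in *Tip60* cKO libraries. They covered 7.52, 9.69, 10.1, 4.61 and 9.79% of the body in control mice 1 to 5, and 7.84, 6.50, 4.33, 3.83 and 1.52% in *Tip60* cKO mice 1 to 5. Control mouse 4 lay among the *Tip60* cKO mice and *Tip60* cKO mouse 1 among the controls, so the genotypes overlapped. The difference of -3.54 points (4.81 ± 2.45% against 8.35 ± 2.33%, SD, n = 5 each) had an exact permutation p of 0.0556. It was -2.89 points within lane 7 and -4.52 within lane 8, and permuting within lanes gave an exact p of 0.0333. With each library left out in turn the exact p ran from 0.0317, without *Tip60* cKO mouse 1 or control mouse 4, to 0.119, without control mouse 3, and with the replicate number as a block it was 0.125. Over 12823 genes with a body peak in at least 2 libraries, 14.6% reached an exact p below 0.05, 74.2% had lower mean coverage in *Tip60* cKO, and the median difference was -0.528 points. None of the members was among the genes with an exact p below 0.05. *Tip60* cKO mouse 5 had the lowest coverage of the *Gad1* body and the fewest tags, and the part of depth in this difference was not tested beyond equal numbers of peaks, with which it was -2.40 points (exact p = 0.0794).

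Over the 18 member regions, 9 scored lower in *Tip60* cKO and 9 higher, beside 56.9% lower over all 144701 consensus regions. All 3 *Cck* regions scored higher. Of the 11 consensus regions of *Gad1*, 8 scored lower in *Tip60* cKO and 3 higher, and none was called. The region at the RefSeq start, chr2:70561938-70564605, overlaps untranslated and coding exon sequence and was present in all 10 libraries (fold enrichment 3.86 ± 0.399 in *Tip60* cKO and 4.39 ± 0.437 in control, SD, n = 5 each, exact permutation p = 0.0952). Its pileup was 0.565 ± 0.0551 in *Tip60* cKO and 0.584 ± 0.0719 in control (scaled to 1000000 tags, exact permutation p = 0.627). The local background over its peaks was 1 to 1.42 times the lowest in *Tip60* cKO and 1 to 1.26 times in control libraries. At the strongest peak of each library the background was 1.17 ± 0.191 in *Tip60* cKO (SD over 5 libraries) and 1 in every control library. *Tip60* cKO values ran from 1 to 1.42. All libraries of a genotype share 1 pooled input, so these are not values of separate mice, and this difference was not tested. The intronic region chr2:70569505-70569860 had peaks in control mice 1, 4 and 5, with fold enrichments of 2.72, 3.70 and 3.77, and in no *Tip60* cKO library (difference in rank score -38.5 ± 15.6, SE, limma adjusted p = 0.351).

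**Figure D3:**
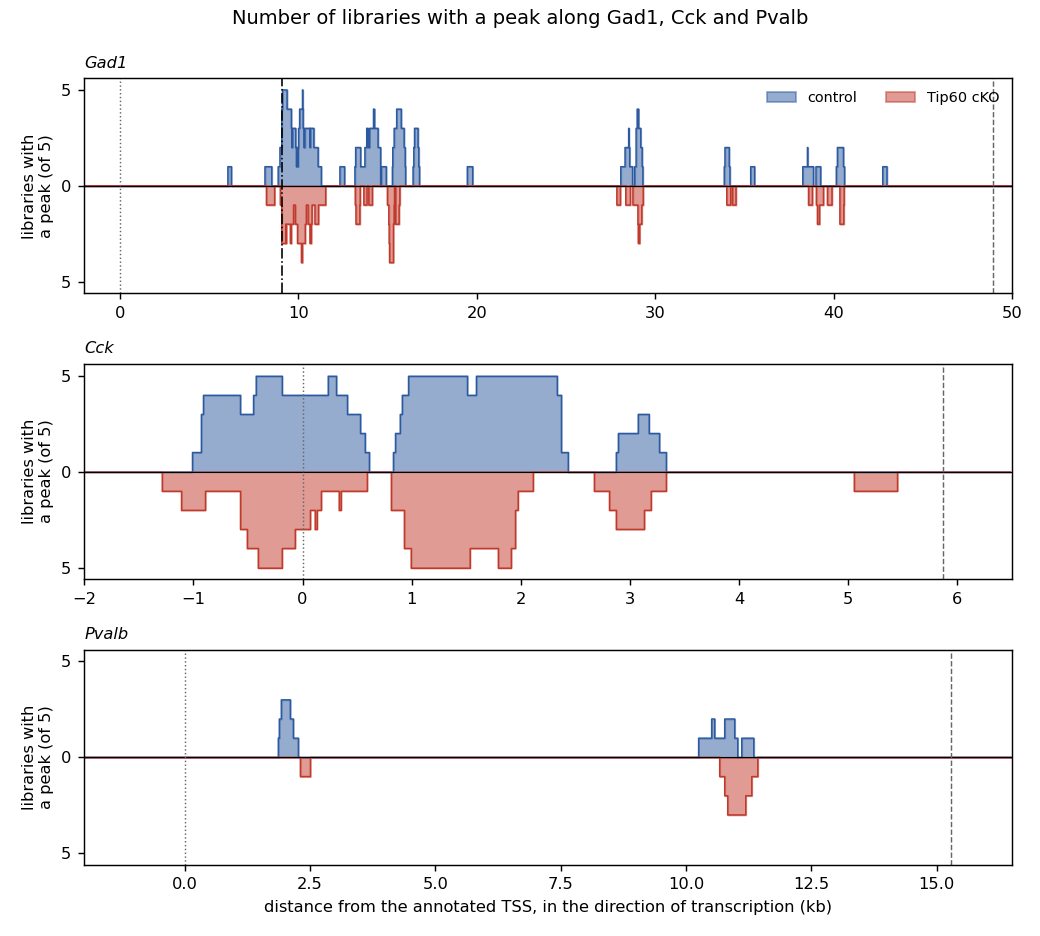
Number of libraries with a peak (y axis, of 5 per genotype, control upward and *Tip60* cKO downward) along *Gad1*, *Cck* and *Pvalb* against the distance from the annotated TSS in kb. Dotted lines mark the annotated TSS, dashed lines the gene end and the dash-dotted line the RefSeq start of *Gad1*, 9057 bases into the gene, within 2 kb of which all 10 libraries have a peak.

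**Figure D4:**
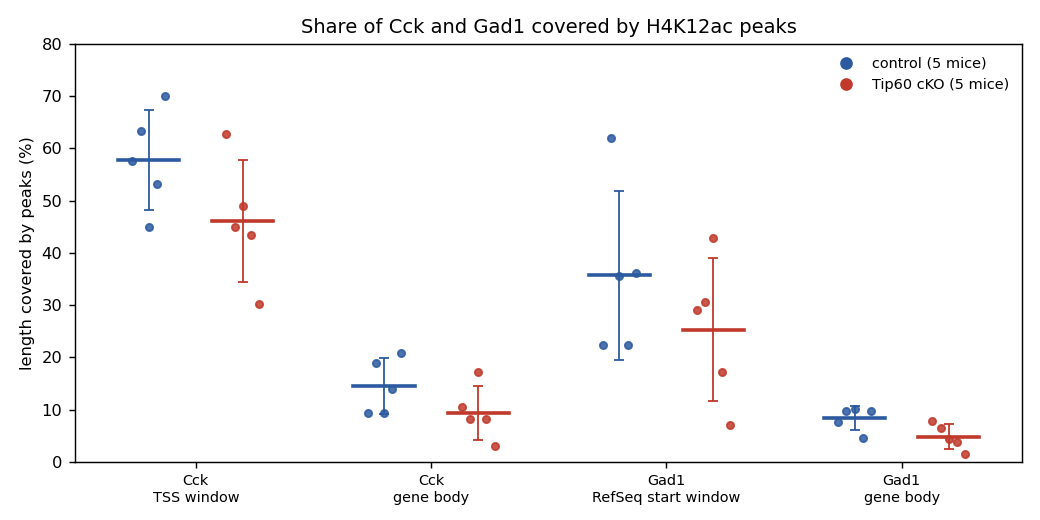
Percent of length covered by peaks in the *Cck* TSS window and gene body, the window around the RefSeq start of *Gad1* and the *Gad1* gene body. Points are mice, bars the mean and SD of 5 mice. The *Tip60* cKO mean is lower at each of these places, from 4.81 against 8.35% in the *Gad1* body to 46.1 against 57.8% at the *Cck* TSS, and the genotypes overlap at each. The places are not independent. The window around the *Gad1* RefSeq start lies within the *Gad1* body, and the downstream *Cck* region lies partly in the TSS window and partly in the body.

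The other neuropeptide gene with TSS peaks was *Npy*. Its peaks had summits between 288 and 23 bases upstream of the TSS, in or next to the printed sequence. The fold enrichment was 3.05, 3.40 and 3.03 in control mice 2, 3 and 4, with no peak in control mice 1 and 5. It was 3.08, 2.87, 4.03 and 3.30 in *Tip60* cKO mice 1, 2, 4 and 5, with no peak in mouse 3. *Npy* was thus detected in 3 of 5 control and 4 of 5 *Tip60* cKO libraries (rank score difference 15.8 ± 20.7, SE, limma adjusted p = 0.798). The difference was -0.265 within lane 7, 39.9 within lane 8 and 29.7 with equal numbers of peaks. It was 5.51 without control mouse 1 or without control mouse 5, and 30.1 without *Tip60* cKO mouse 3.

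The calcium-binding protein genes were detected in some mice only. At *Pvalb*, TSS peaks were present in control mice 1, 3 and 4, with fold enrichments of 3.60, 3.40 and 4.08, and in no *Tip60* cKO mouse. These peaks were at the distal edge of the window, in the region chr15:78204127-78204536, which overlaps an untranslated and a coding exon 2068 bases into the gene and lies at the other RefSeq start of *Pvalb*, 2163 bases downstream. The rank score difference was -43.3 ± 16.6 (SE, unadjusted p = 0.0280, limma adjusted p = 0.347), -47.0 within lane 7 and -37.7 within lane 8. It was 0 with a window of 1 kb, which held no peak, -29.4 with equal numbers of peaks and -29.9 with RefSeq starts. Centred on the downstream RefSeq start, the window also held a peak of fold enrichment 2.88 in *Tip60* cKO mouse 1. The *Pvalb* body had peaks in 4 control and 3 *Tip60* cKO libraries and coverage of 2.76 ± 2.12% and 2.77 ± 2.61% (SD, n = 5 each, exact permutation p = 1). *Calb2* had TSS peaks in *Tip60* cKO mice 1, 4 and 5, with fold enrichments of 3.7, 3.8 and 3.9, and in control mouse 2 with 3.05. Its rank score difference of 31.2 ± 21.3 (SE) was not called (limma adjusted p = 0.588), and was 1.70 within lane 7 and 75.4 within lane 8. No body peak was found at *Calb2* or *Npy*.

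*Slc32a1* and *Gad2*, which act beside *Gad1* in GABA transmission, were almost without peaks. *Slc32a1* had a TSS peak in *Tip60* cKO mice 1 and 3 (fold enrichment 3.08 and 2.56) and a body peak in *Tip60* cKO mice 1 and 4 (3.70 and 3.13), and none in control mice. The rank score differences were 27.2 ± 15.6 at the TSS (SE, limma adjusted p = 0.503) and 27.8 ± 16.1 in the body (limma adjusted p = 0.532). With equal numbers of peaks per library they were 0 and 14.7. The TSS difference was 13.6 with q below 0.01 and 17.0 without *Tip60* cKO mouse 1 or 3, and the body difference was 16.4 without *Tip60* cKO mouse 1 and 18.4 without mouse 4. Body coverage of *Slc32a1* was 3.30 ± 4.53% in *Tip60* cKO and 0% in control (SD, n = 5 each, exact permutation p = 0.444). This coverage difference was 1.95 points without *Tip60* cKO mouse 4, 2.17 without mouse 1 and 1.56 with equal numbers of peaks. The starts of *Gm14204* and *Gm14205* lie in the same TSS window, so its peaks cannot be assigned to *Slc32a1* alone. *Gad2* had a TSS peak of fold enrichment 3.30 in *Tip60* cKO mouse 5, and *Lhx6* had 1 of 2.67 in *Tip60* cKO mouse 1. Neither entered the test over all genes, which needed a peak in 2 libraries.

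*Sst* and *Vip* had no peak at the TSS in any of the 10 libraries, and *Vip* had none in its body, while *Sst* is too short for a body to be measured. The nearest peak to the *Sst* TSS was 6568 to 7173 bases away in 8 libraries and 39583 and 40066 bases away in *Tip60* cKO mouse 5 and control mouse 4. Around *Vip* the nearest peak was 88027 to 88510 bases from the TSS in all 10 libraries. At *Lhx6* it was 30890 to 30965 bases away in the 9 libraries without a TSS peak. The genes thus differed in their surroundings as well, with 12 to 36 peaks within 50 kb of the *Cck* TSS and none within 50 kb of *Vip*.

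In the comparison of genotypes by rank score no member was called at any of the 3 levels. Rank scores order genes or regions within a library, so this test does not see a change shared by most of them. A result without a call therefore does not show unchanged acetylation. At the TSS, 0 of the 5 members tested were called by limma at an adjusted p below 0.05, against 51 of 21672 genes (0.235%), and 1 member (*Pvalb*) had an unadjusted p below 0.05, as did 11.8% of all genes tested. In the gene body, 0 of 4 members were called, against 24 of 12823 genes (0.187%), and 1 (*Cck*) had an unadjusted p below 0.05, beside 10.5% of all genes tested. Among consensus regions, 0 of 18 member regions were called, against 812 of 144701 (0.561%), and 3 had an unadjusted p below 0.05 (beside 12.0% of all regions), namely the upstream *Cck* region, the *Pvalb* region and the intronic *Gad1* region described above. The genotypes did not fully separate in TSS rank score at any member, whereas all *Tip60* cKO libraries lay below all control libraries at 1.62% of the genes tested and above them at 1.93%. In body rank score they separated at *Cck*, lower in *Tip60* cKO, as at 1.5% of the gene bodies tested, with the reverse at 1.41%. The median difference over the 5 members tested was 15.8 in rank score, with 4 higher and 1 lower in *Tip60* cKO. Over all genes tested the median was -0.691, and 55.6% scored lower. The median of the members is the *Npy* difference, which was -0.265 within lane 7 and 5.51 without control mouse 1 or 5. Of the 5 members, 4 lacked a peak in 3 or more libraries, where the rank score is 0.

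Other genes of the GABA system and of interneurons were read in the same way. Of 11 genes of GABA metabolism and the GABA synapse, 10 had a TSS peak in all 10 libraries and 1, *Slc6a13*, had none. The median gene had a control rank score of 91.2. None was called in either direction among the 10 tested, of which 4 scored higher in *Tip60* cKO and 6 lower. The smallest p-values were those of *Gabbr1*, which encodes a GABA-B receptor subunit (84.3 ± 2.56 in *Tip60* cKO and 91.2 ± 3.31 in control, SD, n = 5 each, limma adjusted p = 0.287), and *Abat*, the enzyme that degrades GABA (71.9 ± 3.84 and 77.7 ± 3.46, limma adjusted p = 0.416).

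Of 20 transcription factors and developmental regulators of interneurons, 5 had a TSS peak in all 10 libraries and 6 in none, and 0 of 11 tested were called. Of these 11, 10 scored higher in *Tip60* cKO and 1 lower, while 55.6% of all genes tested scored lower. *Dlx6*, a homeodomain factor of GABAergic precursors, had a peak in 3 *Tip60* cKO and in no control library (limma adjusted p = 0.347). Of 26 further subtype genes, 8 had a TSS peak in all 10 libraries and 2 in none, and 0 of 24 tested were called. Of these 24, 15 scored higher in *Tip60* cKO and 9 lower. *Kit*, a receptor tyrosine kinase, had a peak in 2 *Tip60* cKO and 5 control libraries (limma adjusted p = 0.356). *Npy2r*, which encodes a receptor for neuropeptide Y, scored 90.6 ± 5.48 in control and 82.1 ± 5.77 in *Tip60* cKO (SD, n = 5 each, limma adjusted p = 0.398). At an unadjusted p below 0.05 there were 2 lower genes in the GABA list, 1 higher among the transcription factors and 2 lower among the subtype genes, beside 6.68% lower and 5.10% higher over all genes tested. For comparison, 9 of 12 excitatory neuron marker genes had a TSS peak in all 10 libraries.

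**Figure D5:**
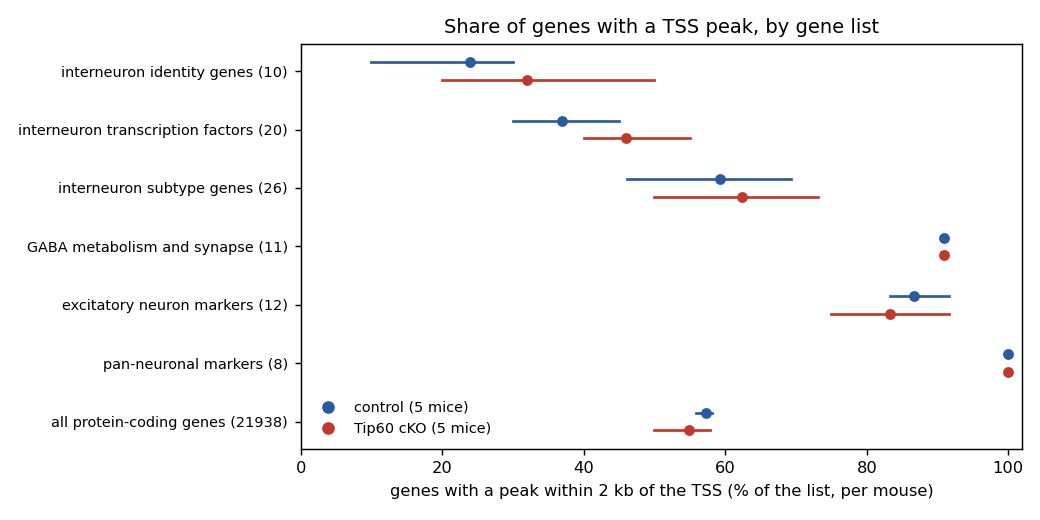
Percent of the genes of each list with a peak within 2 kb of the TSS (x axis), with the number of genes in parentheses. Points are means over 5 mice and lines run from the lowest to the highest mouse. The interneuron identity genes lie between 10 and 50%, the GABA metabolism and synapse genes at 90.9% and the pan-neuronal markers at 100%.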

How the data were processed

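H4K12ac ChIP-Seq was performed by the authors on sorted neuronal nuclei of 5 *Tip60* cKO and 5 control mice. The authors mapped reads to mm10 (STAR) and removed duplicates (SAMtools). Each library's peaks were called with MACS 2.1.0.20140616 at q < 0.1, with 1 pooled input per genotype as background. The pileup deposited by the authors is the coverage signal at a peak's summit, and their deposited fold enrichment is its ratio to the local background after 1 is added to both. Significance was deposited as the −log10 of p and q (p-value and q-value). The depth was 22864189 to 37923809 tags per library. The lists hold no counts per region, so the precision is the spread between mice. All libraries of a genotype share 1 pooled input, and an error of that input does not show in this spread. This applies to fold enrichment, to rank scores by fold enrichment and to the peak calls.

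Genes were taken from GENCODE M21 (GRCm38), and no peak lay beyond a chromosome end of that build. Peaks counted by 1 base of overlap. A TSS rank score is the percentile of the strongest peak by fold enrichment within 2 kb of the TSS among all genes of a library. Gene bodies ran from 2 kb after the TSS to the gene end, in genes longer than 4 kb. Rank scores of genes or consensus regions with a peak in at least 2 libraries were compared with limma 3.58.1 in R 4.3.3, with Benjamini-Hochberg adjustment over all of them. Coverage was compared by two-sided exact permutation of 5 against 5 mice (252 assignments, smallest p 0.00794) in Python 3.11.15, with unadjusted p-values. The study tested reads per region, which was not repeated here.

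The limma step was tested on simulated data. Its criterion for recovered regions was loosened after its first result was seen, and shuffled region scores still gave some calls. Region calls are therefore less certain than their adjusted p states. The members and all gene lists were chosen with earlier results of these data known. All 10 members were named, with the 2 genes of smallest p from each related list and the 3 member regions of smallest p, as none was called (1 gene that this rule names is not reported here); the regions present in all 10 libraries, the neighbouring genes and marker genes were named in addition after their values were seen. Sequencing lanes (7 for mice 1 to 3, 8 for mice 4 and 5 of each genotype) were read from the file names. Alternatives were peaks with q below 0.01, equal numbers of peaks, ranking by pileup, a window of 1 kb, all transcript starts, other priors and filters, fold enrichment relative to the library median, each library left out, a replicate block and the lane. RefSeq starts and pileup scaled to 1000000 tags were added after seeing the data.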

Additional observations from a re-analysis of the deposited data

Results flagged for a closer look

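Of 34 groups of 5 libraries examined (rank score and coverage of each member, by place and genotype), 9 had a library far from the other 4 by Dixon's test. The usual chance rate of about 1 group in 20 does not apply to them, since a library without a peak scores 0. In 6 of these groups a peak was present in 1 library and absent in the other 4, which meets the criterion by construction. They were *Gad2* in *Tip60* cKO mouse 5 (TSS rank score 73.2, coverage 4.77%), *Calb2* in control mouse 2 (67.9 and 5.95%) and *Lhx6* in *Tip60* cKO mouse 1 (65.9 and 5.42%). In 2 groups a peak was absent in 1 library and present in the other 4, the *Pvalb* body in control mouse 2 (rank score 0, the next lowest 69.6) and the *Npy* TSS in *Tip60* cKO mouse 3 (rank score 0, the next lowest 68.1). The *Cck* body rank score of control mouse 4 was 84.6, below the 91.0 of the next lowest control mouse.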

How the results depend on the processing

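No member and no member region was called by limma under any alternative run, at the TSS, in the gene body or over consensus regions. The number of members whose genotypes do not overlap in TSS rank score was 0, and over the libraries left out in turn it ranged from 0 to 1, with *Cck* higher in *Tip60* cKO without control mouse 2. Of 344 alternative values of the 20 results for single genes, 328 neither reversed nor crossed the threshold, 9 reversed and 7 passed an exact p of 0.05, at *Cck*, *Gad1* and *Pvalb* coverage only. Differences had the opposite sign within lane 7 for 3 results (*Npy* TSS and *Pvalb* body rank score, *Calb2* TSS coverage) and within lane 8 for 1 (*Pvalb* body coverage). Ranking by pileup turned the *Cck* TSS rank score difference to -1.24 and the *Gad1* body difference to 0.313. The difference in *Pvalb* body coverage, 0.00301 points, had no stable direction, being -0.113 with equal numbers of peaks and between -0.728 and 0.694 with each library left out. *Pvalb* TSS coverage reached an exact permutation p of 0.0476 without control mouse 2 or 5. The cause of these changes was not tested.

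Same-numbered mice of the 2 genotypes share a number and a sequencing lane, and no label pairs them otherwise. Their deviations correlated between -0.0375 and 0.0553 and 4 of 10 libraries correlated best with their own number. With the replicate number as a block, 35 genes were called at the TSS in place of 51, 22 in place of 24 in gene bodies and 261 in place of 812 regions, and no member. For coverage, the sign-flip test over 5 number pairs cannot go below 0.05. Over all genes and regions, the mean-dependent robust prior gave 86, 8 and 317 calls, equal numbers of peaks 449 regions, and log2 fold enrichment over the library median 1021 of 13004 genes at the TSS. The split of lower and higher TSS calls was 34 and 17, 26 and 60 with the robust prior, and 954 and 67 with log2 fold enrichment over the library median. With each library left out, 57 to 101 genes were called at the TSS, 31 to 54 in gene bodies and 929 to 1407 regions. Requiring 50% of a peak within a region changed nothing by construction, since regions are merged peaks. The library with the most tags, control mouse 5, had no TSS peak at *Npy*, *Calb2*, *Pvalb* or *Slc32a1*, while that with the fewest, *Tip60* cKO mouse 5, had peaks at *Npy*, *Calb2* and *Gad2*, so what more depth would add at these genes cannot be read from these lists.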
